A study of Mus musculus with 7 samples.

Results

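The GDNF family and neurotrophin genes described here are 8 genes for secreted neurotrophic factors and their receptors, of 24421 gene rows in a count table from adult mouse left atria. They comprise 4 ligands (Gdnf, Nrtn, Ntf3 and Bdnf) and 4 receptors (Gfra1, Gfra2, Ret and Ngfr). The set was chosen by its symbols around Gdnf, which was picked from the read counts themselves because it had none in wild type and some with FOG2 overexpression. Values of the 8 genes in that comparison are therefore a description; the calls that a fit over all genes gave them are counted once, as counts only, and are no evidence for the set. All 8 had a row in the table and all 8 passed the filter on low counts, Gdnf only through the overexpression libraries.

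RNA sequencing of left atria from adult CD1 mice, an outbred strain, gave 3 wild type libraries and 4 libraries labelled FOG2 Overexpression. The protocol names the animals NTG and DTG, both kept off doxycycline for 1 week, and does not say which label each stands for. The labels give neither the promoter that drives the transgene, nor sex or litter, nor whether libraries came from different animals. The p-values therefore weigh the difference between groups only against the spread of these libraries. Some of that spread may be technical. FOG2, encoded by Zfpm2, is a zinc finger cofactor of GATA factors, and the title of the series links it to TBX5, GATA4 and atrial fibrillation risk. Values are CPM, read counts scaled to the TMM-adjusted gene total of the library, and 1 read was worth 0.111 to 0.174 CPM. Zfpm2 stood at 31.7, 30.9 and 29.4 CPM in wild type replicates 1 to 3 and at 139.7, 222, 262 and 246 CPM in overexpression replicates 1 to 4, so the labelled gene was higher in every overexpression library. Overexpression replicate 1 stood apart, with r = 0.947 to 0.949 to the other overexpression libraries against 0.979 to 0.983 among those. It and wild type replicate 2 also held Y-linked transcripts (mean log2(CPM + 1) of 6.79 and 6.91, against 0 to 0.189 in the other 5 libraries). Defining markers of cardiomyocytes such as Tnnt2, Myh6 and Nppa were present in every library; the 11 cardiomyocyte markers summed to 154261 to 180842 CPM in wild type and 96669.9 to 137229 CPM in overexpression.

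GDNF and neurturin, the products of Gdnf and Nrtn, are distant members of the TGF-beta superfamily. Each binds a lipid-anchored co-receptor, Gfra1 preferred by GDNF and Gfra2 by neurturin, and the pair then activates the receptor tyrosine kinase RET. GDNF is known for drawing out the ureteric bud of the kidney and for the enteric nervous system, and neurturin with Gfra2 for the parasympathetic innervation of organs that include the heart. NT-3 and BDNF, the products of Ntf3 and Bdnf, are neurotrophins: they signal through TRK receptor kinases, and all neurotrophins can also bind the p75 receptor encoded by Ngfr.

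Promoter windows are shown for Gdnf, the gene that chose the set, and for Nrtn, the other RET ligand, so that the stretch around each annotated start can be read beside the counts. They come from RefSeq on GRCm38.p6 (the mm10 assembly), run from 250 bases before to 50 bases after a start, and are printed 5′ to 3′ on the strand of the gene. Gdnf has an upstream start on the plus strand (chr15:7809798-7810097) and a downstream start (chr15:7813477-7813776), and Nrtn a single start on the minus strand (chr17:56757499-56757798). Capitals mark the words searched for: AGATAA or TGATAA, core words bound by GATA factors, on either strand; AGGTGT, a core word of T-box sites, on either strand; and TATAAA, the TATA box, on the printed strand only.
Gdnf, upstream start: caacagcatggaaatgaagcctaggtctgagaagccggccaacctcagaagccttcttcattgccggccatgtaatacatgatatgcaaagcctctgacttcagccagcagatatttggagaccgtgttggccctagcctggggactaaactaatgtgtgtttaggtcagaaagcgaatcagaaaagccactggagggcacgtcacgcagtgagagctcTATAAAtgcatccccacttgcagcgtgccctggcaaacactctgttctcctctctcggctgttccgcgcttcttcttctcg
Gdnf, downstream start: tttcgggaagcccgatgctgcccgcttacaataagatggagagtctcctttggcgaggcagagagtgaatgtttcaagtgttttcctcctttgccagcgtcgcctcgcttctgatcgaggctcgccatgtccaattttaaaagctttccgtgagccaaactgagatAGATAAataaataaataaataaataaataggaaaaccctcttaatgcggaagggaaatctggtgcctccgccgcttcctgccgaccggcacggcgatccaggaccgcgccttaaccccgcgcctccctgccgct
Nrtn: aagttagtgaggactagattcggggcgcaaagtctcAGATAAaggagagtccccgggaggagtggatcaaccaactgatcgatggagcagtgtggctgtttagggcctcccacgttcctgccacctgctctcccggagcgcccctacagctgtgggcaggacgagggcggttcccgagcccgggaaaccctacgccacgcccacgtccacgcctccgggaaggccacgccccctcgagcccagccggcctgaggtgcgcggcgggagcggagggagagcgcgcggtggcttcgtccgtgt
The upstream Gdnf window holds a TATAAA whose first base lies 31 bases before the start, and no GATA or T-box word. The downstream Gdnf window holds 1 AGATAA, 84 bases before the start, and the Nrtn window 1 AGATAA, 214 bases before it. Of 32851 windows of this length, 18.6% held a GATA word, 13.7% the T-box word and 8.32% the TATA box. Over the members, 6 genes had 14 windows, of which 6 held a GATA word, 1 the T-box word and 1 the TATA box. Many of these windows, and most of those with a GATA word, are alternative starts of 1 gene, Bdnf. They are not independent, and nothing is read from these counts. A match describes letters and is not a measured binding site, and counts per gene do not say which start was used.

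Gdnf had no reads in wild type and a low level in every overexpression library. The 3 wild type libraries held 0, 0 and 0 counts, and overexpression replicates 1 to 4 held 12, 15, 15 and 14. In CPM the overexpression libraries stood at 1.33, 2.16, 2.61 and 1.63, a mean of 1.93 ± 0.567 (SD, n = 4). The groups did not overlap, and the counting intervals of the 4 overexpression libraries overlapped, the exact 95% Poisson interval being 0.687 to 2.32 CPM for the lowest and 1.46 to 4.299 CPM for the highest. Over the group, 56 counts gave 1.85 CPM (1.395 to 2.399). Against a floor of 3 counts over the 3 wild type libraries, 0.127 CPM, the group value of 1.85 CPM was 14.5-fold higher. This fold makes no allowance for the counting interval of the overexpression group. The interval and the floor cover counting error only. In mm10, GENCODE M21 gives Gdnf chromosome 15, 7810846 to 7837575, plus strand, and no annotated gene overlaps it. In bulk tissue, more cells with the transcript and more transcript per cell cannot be told apart.

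The pattern of Gdnf was set beside that of all genes without wild type reads. Of 6642 genes with 0 counts in all 3 wild type libraries, 1285 had any count in overexpression and 17 had at least 1 in each of the 4 libraries, which is 0.0892% of the 19064 genes with any count. At least 3 counts in each overexpression library were seen for 3 genes, Gdnf, A230065H16Rik and Pcp4, and at least 10 for Gdnf alone. A230065H16Rik held 3, 18, 9 and 33 counts in replicates 1 to 4, a wider spread than that of Gdnf, and Pcp4, which encodes a calmodulin-binding peptide, held 3, 15, 8 and 7. In the other direction, 19 genes had at least 1 count in each wild type library and 0 in all overexpression libraries. These genes were picked on their counts and are listed as a description.

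**Figure D1:**
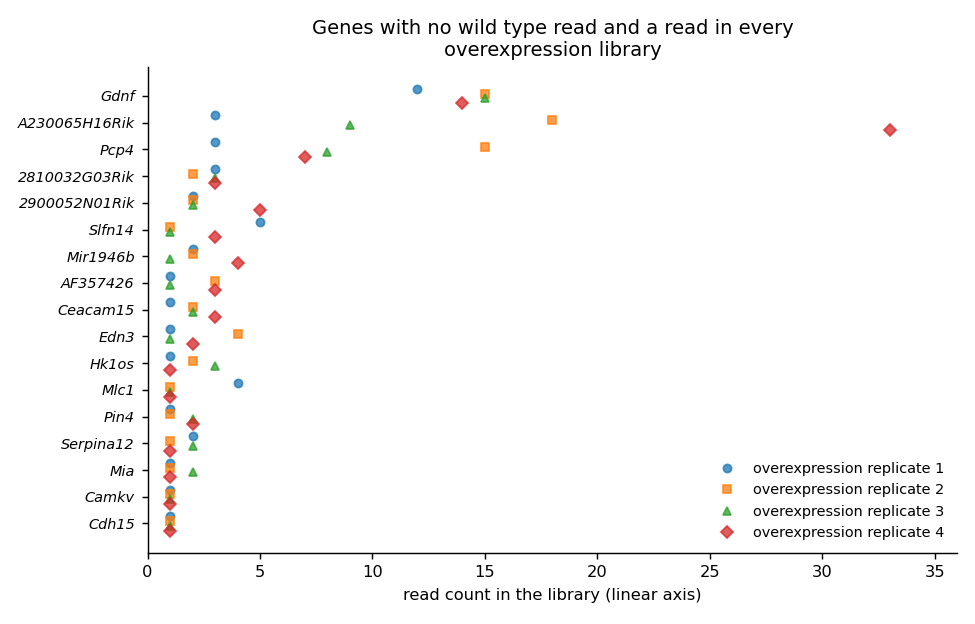
Read counts per overexpression library (linear horizontal axis, counts) for the 17 genes with 0 wild type counts and at least 1 count in each overexpression library; each symbol is a replicate, set slightly apart vertically within a gene. Gdnf sits at 12 to 15 counts in all 4 libraries, while A230065H16Rik and Pcp4 each have 1 library at 3.

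By Pearson correlation over the 7 libraries, the genes most like Gdnf were Zfpm2 itself (Pearson r = 0.992 on log2 CPM), Abcc1 (0.992), 2310015D24Rik (0.992), Syndig1 (0.988), Fads1 (0.987) and Nfasc (0.986). Abcc1 encodes a drug and conjugate exporter, Fads1 a fatty acid desaturase and Nfasc neurofascin, an adhesion molecule of axons and glia. Nfasc stood at 0.596, 0.564 and 0.369 CPM in wild type against 5.21, 4.76, 6.08 and 4.77 CPM with overexpression, and Syndig1, a synapse protein gene, at 0.119, 0 and 0.123 against 1.77, 2.02, 2.78 and 1.51 CPM. In each of these 6 the groups did not overlap, as in Gdnf, and the 7 points share depth and scaling with Gdnf. Gdnf was picked for its difference between the groups, and a high r can come from that difference alone, so these values are a description. The order depends on the measure: by Spearman correlation Abcc1 ranked 1, Nfasc 445 and the other 4 genes 45, and with scaling by library totals alone Abcc1 ranked 9 and Fads1 29 by Pearson correlation. Among the other members the Pearson r with Gdnf ran from -0.53 for Ntf3 to 0.73 for Gfra2.

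Nrtn, the other RET ligand of the set, had the highest level per length in both groups and a higher mean with overexpression. It stood at 5.24, 6.91 and 12.9 CPM in wild type replicates 1 to 3 and at 29.9, 12.3, 16.7 and 18.9 CPM in overexpression replicates 1 to 4. Overexpression replicate 2 lay just below wild type replicate 3, so the groups overlapped, and overexpression replicate 1 was the highest. The means were 8.36 ± 4.04 (SD, n = 3) and 19.5 ± 7.51 (SD, n = 4), a log2 difference of 1.22 ± 0.38 (SE). Without wild type replicate 3 the difference was 1.69 and without overexpression replicate 1 it was 0.93. The gene spans 56751325 to 56757530 on the minus strand of chromosome 17.

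Gfra1, the preferred co-receptor of GDNF, was higher in 3 of the 4 overexpression libraries and lower in the other. Wild type replicates 1 to 3 stood at 9.89, 16.5 and 14.4 CPM. Overexpression replicates 2, 3 and 4 stood at 28.8, 26.2 and 24.3 CPM, all above the wild type libraries, and replicate 1 at 5.43 CPM, below all of them. With every library the log2 difference was 0.63 ± 0.49 (SE), and without overexpression replicate 1 it was 0.96 ± 0.18. In the 5 libraries with few Y-linked reads, which leave out that library and wild type replicate 2, it was 1.12 ± 0.18. It was 0.35 ± 0.35 (SE) with the replicate block, 0.36 ± 0.58 with limma-voom and 0.41 ± 0.50 with the Y-linked covariate. Leaving out any other single library gave 0.45 to 0.79. Counts of Gfra1 per count of Ret, a ratio that needs no scaling, were 1.38, 2.34 and 1.46 in wild type and 0.681, 2.82, 1.56 and 2.35 in overexpression, so overexpression replicate 1 was lowest here too while the other libraries of the groups overlapped. The annotated gene, on the minus strand of chromosome 19 from 58235604 to 58455909, overlaps Gm16277 on the opposite strand, and the strand setting of the counting is not given in the sources used here.

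Gfra2, the preferred co-receptor of neurturin, stood at 1.31, 1.41 and 1.599 CPM in wild type libraries and at 2.99, 3.46, 2.61 and 1.39 CPM in overexpression replicates 1 to 4. Only replicate 4 overlapped the wild type libraries. The log2 difference was 0.85 ± 0.36 (SE), from 10 to 13 wild type reads per library. The gene lies at 70890120 to 70979838 on chromosome 14, plus strand. Ret, the signalling receptor (chromosome 6, 118151745 to 118197718, minus strand), was detected in every library, at 7.15, 7.05 and 9.84 CPM in wild type against 7.98, 10.2, 16.9 and 10.3 CPM with overexpression. Its groups overlapped through overexpression replicate 1, replicate 3 was the highest, and the log2 difference was 0.49 ± 0.27 (SE). Ret and its co-receptors thus had reads in wild type atria, where Gdnf had none.

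The neurotrophin ligands lay lower on average in overexpression, within the spread of the libraries. Ntf3 (chromosome 6, 126101412 to 126166910, minus strand) stood at 2.02, 2.68 and 2.21 CPM in wild type against 1.11, 2.16, 1.74 and 1.86 CPM with overexpression. Only overexpression replicate 2 reached the wild type range, and the log2 difference was -0.43 ± 0.32 (SE). Bdnf, at 3.22, 4.79 and 5.41 CPM against 5.76, 4.04, 0.695 and 2.79 CPM, had its highest and its lowest library in the overexpression group (-0.40 ± 0.51). Its locus on chromosome 2, from 109674700 to 109727007, overlaps Gm45346 on the opposite strand. Ngfr, the p75 receptor (chromosome 11, 95568818 to 95587735, minus strand), had the largest SE of the 7 genes other than Gdnf. It stood at 1.55, 0.141 and 1.97 CPM in wild type against 1.55, 2.16, 2.26 and 0.232 CPM with overexpression, the low library of each group holding 1 and 2 reads. Its log2 difference of 0.27 ± 0.77 (SE) was -0.22 without wild type replicate 2.

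**Figure D2:**
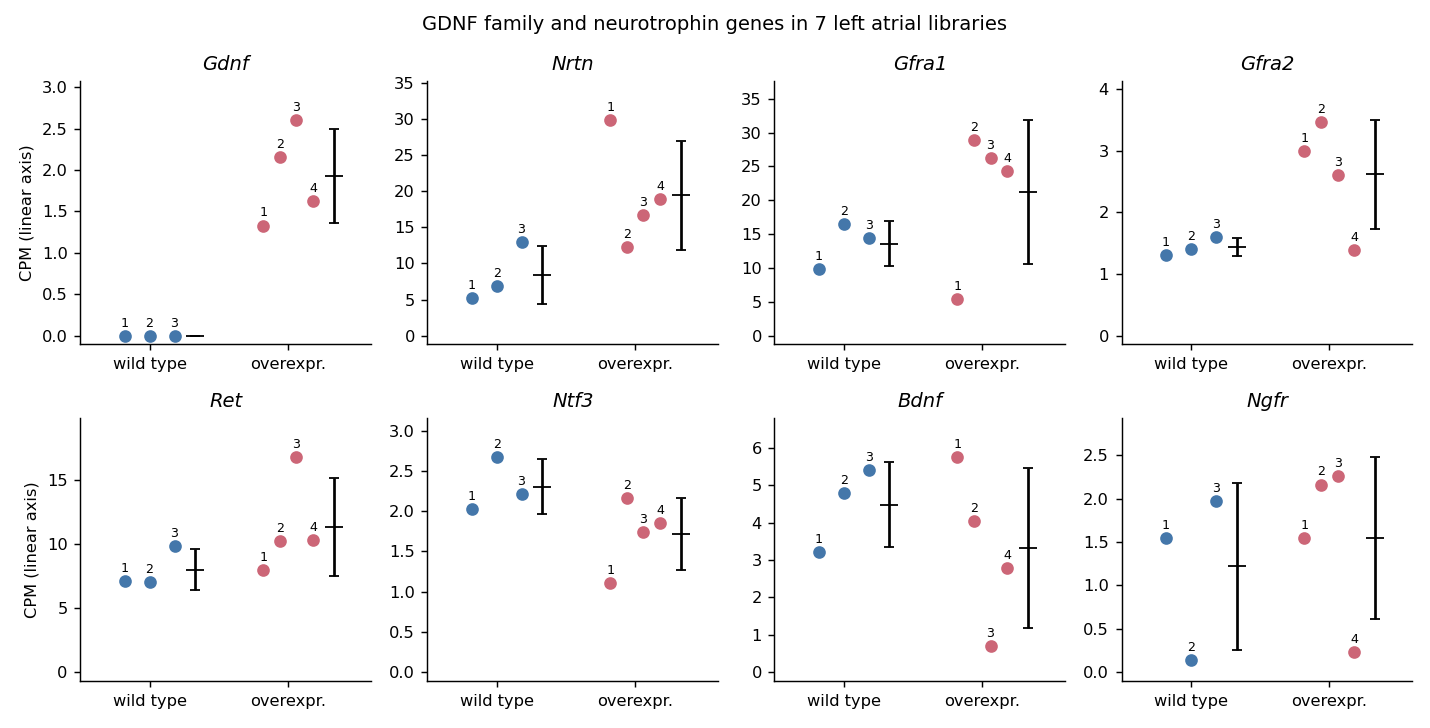
CPM of the 8 genes in each library (linear vertical axes that differ between panels and include 0; numbers are replicates, bars the mean ± SD of 3 wild type and 4 overexpression libraries). Gdnf is at 0 in wild type and at 1.33 to 2.61 CPM in overexpression, and Gfra1 in overexpression replicate 1 lies at 5.43 CPM, below every other library.

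Counted over the set, 1 of the 8 genes was called higher (Gdnf) and 0 lower by edgeR's quasi-likelihood test at an adjusted p under 0.05, where 1.55% of 13295 tested genes were called higher, 3.29% lower and 4.84% in either direction. Of all 13295 tested genes, 2551 had an unadjusted p under 0.05, in either direction. Among the members there were 3 higher and 0 lower at that threshold. DESeq2 called 2 higher and 0 lower, and limma-voom 1 and 0. The groups of libraries did not overlap for 1 member, against 19.8% of all tested genes. The call of Gdnf was fixed by how it was picked, and since the comparison chose the set, nothing is read from these shares.

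**Figure D3:**
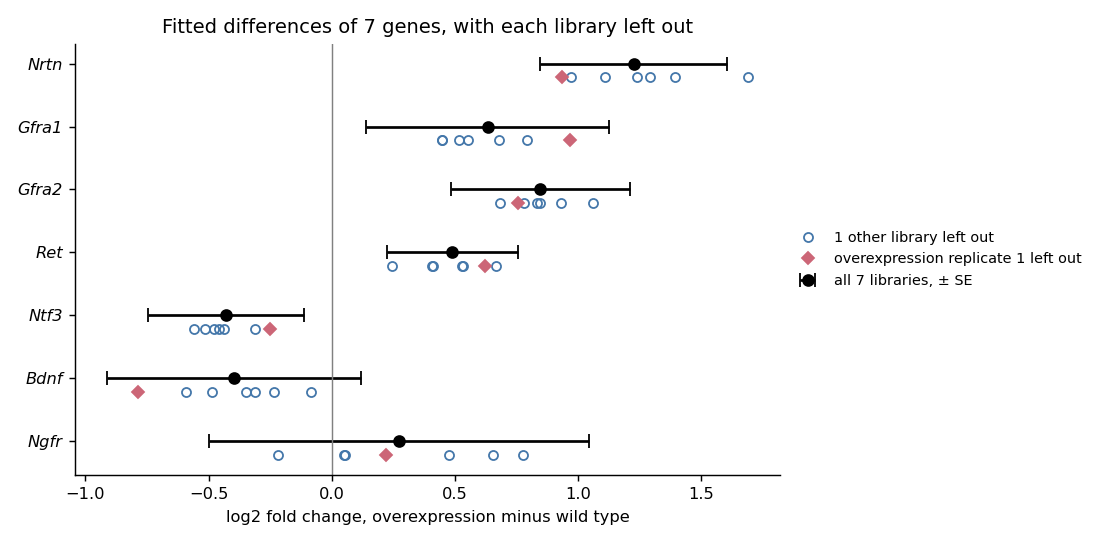
Log2 differences between overexpression and wild type for the 7 genes other than Gdnf (black points ± SE, all libraries) and the same with a library left out (open circles, or a diamond where overexpression replicate 1 was left out). The diamond of Gfra1 is at 0.96 against 0.63 with all libraries, and Ngfr spans 0.

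Per kilobase of transcript (median length in GENCODE M21), the order of levels in wild type was Nrtn at 8.17 ± 3.95 CPM per kb (SD, n = 3), Gfra1 at 7.02 ± 1.74, Ntf3 at 1.65 ± 0.241, Ret at 1.61 ± 0.319, Bdnf at 1.15 ± 0.290, Gfra2 at 0.973 ± 0.0993, Ngfr at 0.354 ± 0.278 and Gdnf at 0. The libraries of Nrtn and Gfra1 overlapped, as did those of Ntf3 and Ret and those of Bdnf and Gfra2, so by median length these neighbours do not differ beyond their spread. In overexpression Nrtn (19.0 ± 7.34, SD, n = 4) and Gfra1 (10.9 ± 5.51) again came first, and Gdnf, at 0.526 ± 0.154 CPM per kb, came seventh, next to Ngfr (0.450 ± 0.271), with overlapping libraries. Divided by the longest transcript, Gfra1 was at 2.93 and Gfra2 at 0.415 CPM per kb in wild type, and the order in wild type was unchanged. By that length Nrtn (5.12 to 12.6) and Gfra1 (2.13 to 3.55) no longer overlapped in wild type. Neither did Bdnf (0.754 to 1.27) and Gfra2 (0.377 to 0.461), while Ntf3 and Ret still did, so the overlap depends on the length used.

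Of the other ligands and receptors of the GDNF and neurotrophin families, 11 of 18 in the table were tested; 1 rose and 0 fell, beside 4.84% of all tested genes called. Their median log2 difference was 0.36, against 0.02 for all tested genes. Sorcs2, a sortilin-family receptor that partners with p75, rose from 8.32 ± 1.43 to 15.7 ± 3.45 CPM (0.91 ± 0.21, SE; edgeR quasi-likelihood test, adjusted p = 0.0426). That call ended without any 1 wild type library or without overexpression replicate 2, 3 or 4 (adjusted p = 0.0611 to 0.176), with limma-voom (0.0599) and with the replicate block (0.0695). DESeq2 and scaling by library totals alone each called 4 genes of this list higher, and 3 were called higher without overexpression replicate 1. Gfra3, the co-receptor of artemin, stood at 4.11 ± 1.03 and 7.88 ± 1.01 CPM with groups that did not overlap (0.93 ± 0.23, adjusted p = 0.0556), Sdc3, a syndecan that can bind GDNF, at 0.36 ± 0.10 (0.0706), and Ncam1, an alternative GDNF receptor, at 0.52 ± 0.15 (0.0841). The ligand genes Artn and Pspn had at most 2 counts in any library.

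ERK kinase acts downstream of RET and TRK receptors, and of many others, and switches on feedback inhibitors and ETS factors. Of 16 tested genes of ERK feedback and ETS targets, 5 rose and 1 fell, against 4.84% of all tested genes, with a median log2 difference of 0.57. Dusp6, a phosphatase of ERK, stood at 40.0, 40.6 and 45.3 CPM in wild type against 80.8, 67.9, 71.1 and 97.8 CPM with overexpression. It rose by 0.92 ± 0.14 (SE; edgeR, adjusted p = 0.00607), and every overexpression library lay above every wild type library. Etv5, an ETS factor known as a target of RET signalling in kidney and spermatogonia, rose from 17.8 ± 3.40 to 49.2 ± 14.4 CPM (1.47 ± 0.24, adjusted p = 0.0107). Leaving out wild type replicate 1 or 2 gave an adjusted p of 0.0619 or 0.0648, and it was 0.0732 in the 5 libraries with few Y-linked reads.

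Dusp4, a further ERK phosphatase, rose from 5.47 ± 0.983 to 16.1 ± 5.08 CPM (1.56 ± 0.28, edgeR adjusted p = 0.0132). Without wild type replicates 1, 2 or 3 its adjusted p was 0.0760, 0.0506 and 0.0552. Fos, an immediate early factor, rose by 1.80 ± 0.41 (edgeR adjusted p = 0.0492), with 49.9 CPM in overexpression replicate 1 and 14.3 to 28.3 CPM in the other 3. Spred1, an inhibitor of Ras signalling, rose by 0.41 ± 0.10 (edgeR adjusted p = 0.0464). Both calls were close to the threshold and ended in 10 of 17 alternative settings each, with adjusted p up to 0.209 for Fos and 0.218 for Spred1; without any 1 wild type library or without overexpression replicates 3 or 4, Fos had 0.0590 to 0.209 and Spred1 0.0723 to 0.218, and Spred1 had 0.0759 without overexpression replicate 2.

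Etv1, an ETS factor abundant in atrial cardiomyocytes and known for fast conduction, moved the other way. It stood at 26.3, 26.6 and 28.2 CPM in the wild type libraries and 14.0, 12.98, 14.8 and 14.4 CPM in overexpression, and fell by 0.95 ± 0.11 on the log2 scale (edgeR adjusted p = 0.00161). Etv4, an ETS factor paired with Etv5 downstream of RET in the kidney, was not tested because its counts were low: it had 1 or 2 counts in wild type and 42, 1, 3 and 1 counts in overexpression replicates 1 to 4. The number of genes of this list called higher was 1 without wild type replicate 1 or 2, 2 without wild type replicate 3, 3 without overexpression replicate 3 or 4, and 3 in the libraries with few Y-linked reads. Of the smooth muscle and pericyte markers, 3 of 11 rose (Acta2, Cspg4 and Notch3), against 1.55% of all tested genes called higher. None was at 0 in all libraries, and their sum ran from 510 to 620 CPM in wild type and from 1309 to 1802 CPM in overexpression. Most of that rise was Acta2, at 15.2, 20.9 and 36.2 CPM in wild type against 1032, 680, 760 and 714 CPM with overexpression. The median log2 difference of the 11 markers was 0.62, with 10 above 0. Of the 11 cardiomyocyte markers, whose sums are given above, 4 fell, against 3.29% of all tested genes called lower. The part of these cells in the result was not tested.

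Of all 13295 tested genes, edgeR called 4.84%, and 2551 had an unadjusted p under 0.05. The adaptors and effectors that RET and TRK receptors recruit were called in 0 of 29 tested cases by edgeR, with a median of 0.03. Of these, 3 were higher and 1 lower at an unadjusted p under 0.05, DESeq2 called 0 higher and 1 lower, and limma-voom none. Gab1, a docking protein, had the smallest p, at 79.8 ± 3.81 and 56.6 ± 8.36 CPM (-0.50 ± 0.13, adjusted p = 0.0580), followed by Grb10 (0.32 ± 0.11), Src (0.45 ± 0.16) and Dok5 (0.59 ± 0.26). Of the p75 receptor partners, edgeR, DESeq2 and limma-voom called 0 of 15, 0 had an unadjusted p under 0.05 by edgeR, and the median was 0.03. The smallest p values belonged to Adam17, a protease that sheds p75 (0.25 ± 0.11, adjusted p = 0.276), Ngfrap1, a binding partner of the receptor (0.46 ± 0.22), Arhgdia, an inhibitor of small GTPases (0.23 ± 0.14), and Lingo1, a co-receptor (-0.59 ± 0.36). Of the genes for processing of proneurotrophins, edgeR called 0 of 9 (2 higher and 1 lower at an unadjusted p under 0.05; DESeq2 called 1 higher and 1 lower, limma-voom none), with a median of 0.36. The convertase gene Pcsk7 stood at 35.1 ± 2.15 and 44.7 ± 1.87 CPM (0.35 ± 0.09, adjusted p = 0.0695), Mmp9, a protease, at -1.28 ± 0.39, Pcsk5, a convertase, at 0.45 ± 0.14, and Plat, tissue plasminogen activator, at 0.44 ± 0.20 on the log2 scale.

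Genes known to control Gdnf in the developing kidney were called in 2 of 19 tested cases, both lower, with a median of 0.15. Of all tested genes, 3.29% were called lower and 4.84% in either direction. Fras1, a basement membrane protein required for GDNF induction in the kidney, stood at 129, 171 and 155 CPM in wild type against 46.3, 44.8, 40.5 and 31.7 CPM with overexpression. It fell by 1.89 ± 0.15 on the log2 scale (SE; edgeR adjusted p = 2.04e-04), and the groups were far apart. Six4, a homeobox factor of the Eya network, fell from 11.3 ± 2.81 to 5.61 ± 0.841 CPM (SE of the log2 difference 0.22; edgeR adjusted p = 0.0343), a call that ended without wild type replicate 1 (0.134) or 2 (0.169), without overexpression replicate 2 (0.0853) or 3 (0.0859), with the replicate block (0.0624) and in the libraries with few Y-linked reads (0.1003). Frem2, which forms a complex with Fras1, stood at 32.4 ± 4.37 and 16.7 ± 5.58 CPM (-0.96 ± 0.24, adjusted p = 0.0590), and Osr1 at 0.49 ± 0.14 (0.0798). Pax2, Hoxa11, Hoxc11, Hoxd11 and Grem1 of this list, among them transcription factors that act on Gdnf in the kidney, had 0 counts in every library.

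Of 15 tested genes of other neurotrophic cytokines and their receptors, 1 rose and 0 fell (6.67%), near the 4.84% of all tested genes called. Their median was 0.07. Ptn, the heparin-binding growth factor pleiotrophin, stood at 8.93, 6.63 and 7.14 CPM in wild type against 17.6, 13.8, 16.3 and 15.9 CPM with overexpression, and rose by 1.07 ± 0.16 (edgeR adjusted p = 0.00634). Cntfr, the receptor subunit for ciliary neurotrophic factor, stood at 13.5, 11.8 and 6.89 CPM in wild type against 0.111, 2.60, 1.74 and 3.95 CPM with overexpression (-2.35 ± 0.66, adjusted p = 0.0921). Ctf1, cardiotrophin, was at -0.64 ± 0.25 and Clcf1 at 0.81 ± 0.32. Without overexpression replicate 1 this list had 2 genes higher and 1 lower.

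**Figure D4:**
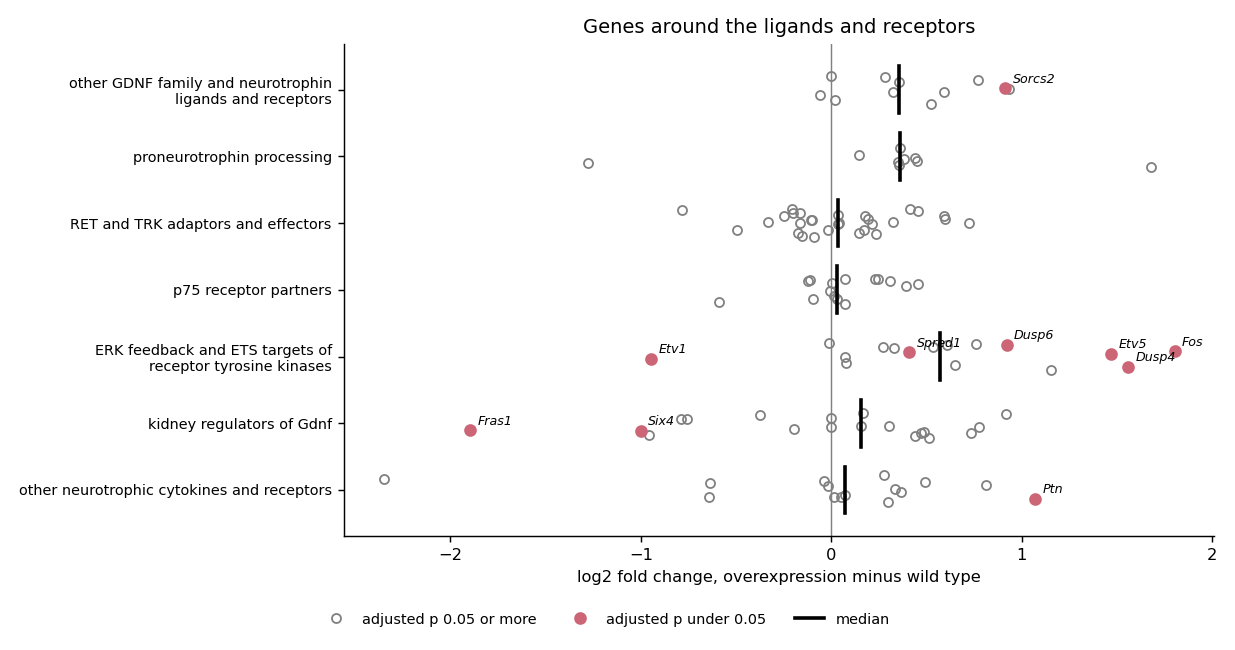
Log2 differences between overexpression and wild type of the tested genes of 7 lists around the neurotrophic ligands and receptors (open points, adjusted p of 0.05 or more; filled and named points, under 0.05; bars, medians; vertical scatter within a list has no meaning). The ERK feedback list holds 5 filled points to the right and Etv1 to the left, at -0.95.

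Markers of nerve cells were read beside the members, since these factors act on nerves and Ngfr and Gfra genes are also expressed by glia. The 18 Schwann cell and glia markers summed to 345 to 392 CPM in wild type and 321 to 498 CPM in overexpression, with overexpression replicate 1 the lowest; none of them was at 0 in all libraries, and 1 of 11 tested rose, Mbp, a myelin protein gene (0.47 ± 0.11, edgeR adjusted p = 0.0432). Scn7a alone made up most of the glia marker sum in every library. Its CPM ran 214, 249, 218 over wild type replicates 1 to 3 and 177, 301, 237, 292 over overexpression replicates 1 to 4. Scn7a too was lowest in overexpression replicate 1, so the place of that library in the sum leans on this gene. Single markers did not all follow that sum: Mbp stood at 77.7 CPM in overexpression replicate 1 and at 64.1 to 80.1 CPM in the other 3. The 26 autonomic neuron markers summed to 15.5 to 26.5 CPM in wild type and 14.1 to 30.7 CPM in overexpression, 7 of them were at 0 in every library (among them Th, Chat, Slc18a3, Chrnb4, Nefm and Snap25), and 0 of 5 tested were called by edgeR, DESeq2 or limma-voom, with 0 at an unadjusted p under 0.05. Fibroblast markers summed to 11639 to 16498 CPM in wild type and 16080 to 19565 CPM in overexpression. Of these, 0 of 11 were called by edgeR and 2 higher by DESeq2, and 5 had an unadjusted p under 0.05. Of all 13295 tested genes, 2551 had an unadjusted p under 0.05. Lung epithelium markers summed to 0.357 to 0.846 and 5.73 to 13.02 CPM, in overexpression nearly all of it Sftpa1 (0, 1 and 0 counts against 67, 44, 31 and 107), while Sftpb and Sftpc had at most 1 count. Their part in the levels of the members was not tested.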

How the data were processed

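Whole-number counts per gene, as deposited, were used for 7 left atrial libraries; the authors used STAR, HTSeq 0.6.0, DESeq2 and mm10, per the submitters' processing notes, which give no roles and no strand setting. Per the labels, libraries were called polyA in one field while the protocol removes ribosomal RNA. Gene rows held 27.8% to 33.1% of all reads (5562520 to 8655655 per library); rows naming no gene were left out. Genes passing filterByExpr (minimum count 10, total 15) were scaled by TMM; the test was that of edgeR 4.0.16 under R 4.3.3 (quasi-likelihood, robust, two-sided, no covariate), with Benjamini-Hochberg adjustment over all 13295 and a threshold of 0.05. Alternatives, with effects in the closing section, were other scalings and filters, a replicate block, a Y-linked covariate, each library left out, DESeq2 1.42.0 and limma-voom 3.58.1. The scripts were tested on simulated data, where the share of false calls was above the threshold of 0.05, so calls near it are the least certain. Members and lists were chosen with earlier results of these data known. Named were all members, Zfpm2, up to 4 tested genes with the smallest p of each list, all called genes where a list had 5 or fewer, the 6 genes with the highest Pearson correlation with Gdnf (log2 CPM, prior count 2), and markers moving with a member. Other genes, among them Artn, Pspn, Etv4, Fos, Spred1, Scn7a and Sftpa1, were chosen after their values were seen. Some genes of the lists are not reported here by name.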

Additional observations from a re-analysis of the deposited data

Results flagged for a closer look

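A check for a library far from the others covered 51 sets of overexpression values, from members, summed markers and many named genes. Of these sets, 1 held such a library, where chance flags about 1 in 20. Six4 stood at 6.86 CPM in overexpression replicate 4, against 5.04 to 5.34 CPM in the other 3 overexpression libraries. Etv4, not counted among these, also had a library far from the others. It stood at 4.65 CPM in overexpression replicate 1 and at 0.116 to 0.521 CPM in the other 3.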

How the results depend on the processing

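Counts of calls are given as higher and lower. Over all genes (206 and 438), library totals only gave 444 higher (60.2% of calls, against 32.0%, with the median log2 difference of all genes moving from 0.02 to 0.15), DESeq2 gave 460 and 681, the replicate block 129 and 253, and leaving out a library 75 to 493 and 181 to 658, the extremes being without wild type replicate 2 and overexpression replicate 1. Member calls are counts only, that of Gdnf being fixed by how it was picked. Members called higher were 2 with DESeq2 (Gdnf and Nrtn), 2 (Gdnf and Gfra1) in the libraries with few Y-linked reads, a setting chosen after seeing the data, and 1 to 2 with a library left out (2, with Gfra1, without overexpression replicate 1). Ngfr ranged from -0.22 to 0.77 with a library left out and turned to -0.22 without wild type replicate 2 and to -0.26 in the libraries with few Y-linked reads; no other member changed sign. Other ligands and receptors called higher were 4 with library totals only, 4 with DESeq2, 0 with limma-voom, 0 under the replicate block, 2 given the Y-linked covariate and 0 to 3 with a library left out. Proneurotrophin processing had 1 higher with library totals only, 1 higher and 1 lower with DESeq2, and 0 to 1 in each direction with a library left out. Adaptors had 1 lower with no filter, with DESeq2, with the Y-linked covariate and in the libraries with few Y-linked reads, and 0 to 1 with a library left out. ERK genes called higher were 3 with no filter, 3 in the libraries with few Y-linked reads and 1 to 6 with a library left out. Kidney regulators had 1 higher with library totals only, 1 lower with the replicate block and 1 to 3 lower with a library left out. Other cytokines had 2 higher and 1 lower in the libraries with few Y-linked reads, 1 lower with DESeq2, and 1 to 2 higher and 0 to 1 lower with a library left out. The cause of these shifts was not tested, and fits with a library left out also rest on fewer libraries. Deviations of libraries with the same replicate number correlated at 0.0789, 0.0136 and 0.0720. Libraries with different numbers correlated at -0.101 to 0.152, the highest being wild type replicate 2 with overexpression replicate 4. These values do not settle whether the libraries were paired. Ngfr rested on 1 to 16 reads per library and Gfra2 on 10 to 27.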
